A study of Mus musculus with 4 samples.

Results

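The inner retinal neuron transcripts are 31 genes that mark bipolar, amacrine, horizontal and ganglion cells, picked by gene symbol from a table of 54446 genes. They comprise 12 bipolar, 9 ganglion, 5 amacrine and 4 horizontal cell genes, together with Snap25, which all these neurons share. All 31 symbols were found once each in the table. RNA was sequenced from endothelial cells, which line blood vessels, after sorting them from retinas of C57BL/6 mice on postnatal day 16. There were 2 libraries from mice titled Zeb1-CKO, a conditional knockout of the transcriptional repressor Zeb1 that the genotype label calls a knockdown, and 2 libraries from control mice, each made from 100 cells. The labels give neither the Cre driver nor the alleles. They do not say whether each library had its own animal, so a p-value here reflects only how far these samples spread, and that spread may be technical. Values are FPKM (sequenced fragments per unit of transcript length and of library size) and so can be compared between genes on a per-length scale.

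The retina passes light signals from photoreceptors to bipolar cells and from there to ganglion cells, whose axons form the optic nerve. Horizontal cells act laterally at the photoreceptor synapse, and amacrine cells, many of them inhibitory, act laterally on bipolar and ganglion cells. ON bipolar cells sense a fall in photoreceptor glutamate through the receptor mGluR6, encoded by Grm6, which is coupled through a G protein to the cation channel TRPM1. None of these neurons is an endothelial cell, so the genes were read here as markers of neurons in libraries sorted for another cell type. Which cells their RNA came from was not tested. In such bulk libraries, fewer cells of a type and less RNA per cell cannot be told apart.

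The summed FPKM of the 31 genes was a minute part of each library's total, and this sum differed most between the 2 Zeb1-CKO libraries. It does not give the share of all neuronal RNA. The amacrine and horizontal sums and Snap25 differed more between the 2 controls than between the Zeb1-CKO libraries. The library labelled Zeb1-CKO 2 stood apart: it held the highest value of 11 of the 12 bipolar genes, whereas 27.4% of the 38986 genes above 0 in any library were highest there. The 31-gene and bipolar sums and the main fold changes of fitted bipolar genes are therefore given also without it. Endothelial markers were present throughout, with the 12 genes of that list summing to 4496 and 4893 FPKM in Zeb1-CKO libraries and 3947 and 4708 FPKM in the controls. Zeb1 had 8.66 and 7.07 FPKM in both Zeb1-CKO libraries, against 10.7 and 11.1 FPKM in the controls. A value per gene does not separate a deleted exon from the rest of the transcript, so this is a weak check of the labels. Low FPKM values multiplied by transcript length fell on steps in each library, and if 1 step is 1 read of a pair, the depths were 43.9 and 33.5 M reads in the Zeb1-CKO libraries and 41.2 and 22.4 M reads in the controls.

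The 31 genes summed to 43.7 and 92.6 FPKM in Zeb1-CKO libraries 1 and 2 and to 53.6 and 49.1 FPKM in control libraries 1 and 2, which is 0.0154% and 0.0318% of the Zeb1-CKO totals and 0.0182% and 0.0167% of the control totals. The ganglion-type genes Rbpms and Sncg made up most of the sum in each library but Zeb1-CKO 2. Without these, the other 29 genes summed to 18.2 and 49.3 FPKM in Zeb1-CKO libraries and 20.2 and 13.2 FPKM in the controls. The log2 ratio of the genotype means of the 31-gene sum was 0.41, with p = 1 in the two-sided exact permutation test over libraries, whose smallest possible p here is 0.333. It was -0.23 without Zeb1-CKO 2, so its direction rests on that library. Of the 31 genes, 6 reached 1 FPKM in Zeb1-CKO 1, 15 in Zeb1-CKO 2, and 7 in each control library.

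**Figure D1:**
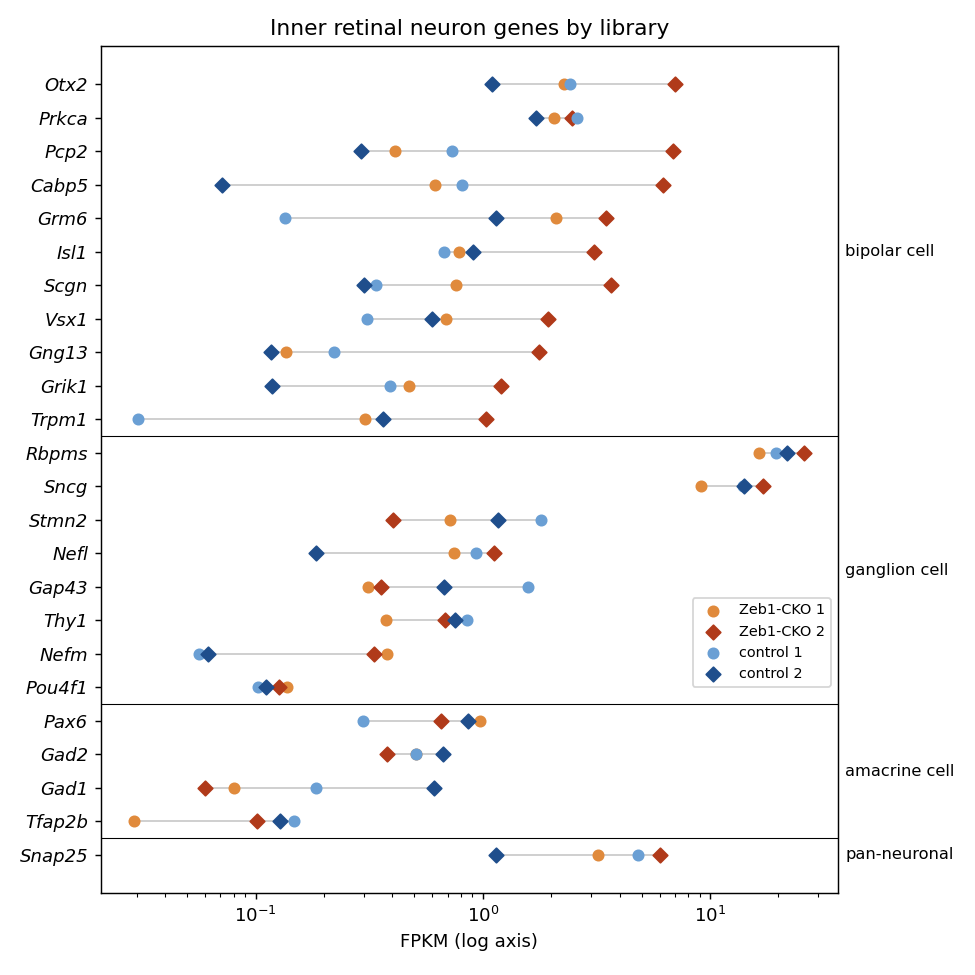
FPKM on a log axis of the 24 inner retinal neuron genes averaging 0.1 FPKM or more, 1 row per gene and 1 point per library, grouped by cell class. Zeb1-CKO 2 lies at the right end of most bipolar rows, for example Pcp2 at 6.89 FPKM, while Rbpms and Sncg are above the other genes in every library.

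Bipolar genes, except Prkca, had their highest values in Zeb1-CKO 2, and as a sum they were similarly low in the other 3 libraries. Their sum was 10.6 and 39.0 FPKM in Zeb1-CKO libraries 1 and 2, against 8.69 and 6.74 FPKM in control libraries 1 and 2. The sums of the genotypes did not overlap, but the step within the Zeb1-CKO pair, 3.68-fold, was larger than the step from Zeb1-CKO 1 to either control. As means, the sum was 24.8 ± 20.1 FPKM in Zeb1-CKO cells and 7.72 ± 1.38 FPKM in control cells (SD, n = 2 each). The log2 ratio of these means was 1.68 and dropped to 0.46 without Zeb1-CKO 2; it was 1.51 when each library was divided by its endothelial sum.

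Cabp5 and Pcp2 showed the contrast most sharply among the abundant bipolar genes. Cabp5, which encodes a calcium-binding protein of bipolar cells, lies at chr7:13398132-13408887 in mm10 and was at 0.615 and 6.19 FPKM in Zeb1-CKO libraries and 0.810 and 0.0709 FPKM in the controls. Only Zeb1-CKO 2 was high, and the other Zeb1-CKO library lay between the 2 controls. Pcp2, which encodes a modulator of Go-type G proteins in rod bipolar cells, lies at chr8:3623371-3625545 and was at 0.409 and 6.89 FPKM in Zeb1-CKO libraries against 0.734 and 0.290 FPKM in controls, again high in Zeb1-CKO 2 alone. Pcp2 shares 941 of its 1828 exon bases with Pet100 on the opposite strand, and these libraries do not mark strand. Pet100 was at 4.43 and 6.85 FPKM in Zeb1-CKO libraries and 4.29 and 6.21 FPKM in the controls, so it did not show the same contrast. Gng13, which encodes the gamma subunit of the G protein in ON bipolar cells, was at 0.136 and 1.76 FPKM in Zeb1-CKO libraries and 0.220 and 0.117 FPKM in the controls. It shares 399 of its 773 exon bases with Chtf18 on the opposite strand, which was at 2.20 and 2.50 FPKM against 1.44 and 1.41 FPKM. Without Pcp2 and Gng13, the log2 ratio of the bipolar sum was 1.52.

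The starts of 4 bipolar genes are shown because the homeodomain factor OTX2, itself among these genes, is known to bind the 6-base motif TAATCC. The sequences are the 250 bases before each RefSeq start in GRCm38.p6, 5′ to 3′ on the gene's strand, with TAATCC on either strand in capitals: chr7:13397905-13398154 on the plus strand for Cabp5, chr7:64153585-64153834 on the plus strand for Trpm1, chr11:50850435-50850684 on the plus strand for Grm6 and chr8:3625548-3625797 on the minus strand for Pcp2.
Cabp5: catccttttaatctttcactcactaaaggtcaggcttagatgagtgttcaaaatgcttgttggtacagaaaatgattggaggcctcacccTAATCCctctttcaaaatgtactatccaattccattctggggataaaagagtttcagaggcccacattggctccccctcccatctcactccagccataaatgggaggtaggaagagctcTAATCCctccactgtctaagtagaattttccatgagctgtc
Trpm1: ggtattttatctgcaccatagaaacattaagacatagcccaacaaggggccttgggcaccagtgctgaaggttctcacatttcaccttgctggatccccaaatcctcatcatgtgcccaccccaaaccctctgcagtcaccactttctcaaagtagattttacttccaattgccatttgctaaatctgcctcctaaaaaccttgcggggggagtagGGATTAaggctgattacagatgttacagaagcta
Grm6: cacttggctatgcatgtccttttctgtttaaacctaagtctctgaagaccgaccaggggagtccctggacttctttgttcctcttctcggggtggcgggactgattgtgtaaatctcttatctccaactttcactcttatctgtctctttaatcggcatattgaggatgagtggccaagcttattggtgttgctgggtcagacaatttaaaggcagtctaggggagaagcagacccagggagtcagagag
Pcp2: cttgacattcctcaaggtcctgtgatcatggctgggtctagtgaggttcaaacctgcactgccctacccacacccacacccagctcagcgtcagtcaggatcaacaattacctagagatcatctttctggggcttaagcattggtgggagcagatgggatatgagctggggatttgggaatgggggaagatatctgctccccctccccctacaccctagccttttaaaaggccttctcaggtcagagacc
Cabp5 holds the motif at 160 and 41 bases before its start and Trpm1 at 34 bases, while Grm6 and Pcp2 hold none in this window. RefSeq promoters of 300 bases, running from 250 bases before to 50 after the start, were matched for 21 of the 31 genes and for 20456 genes in all, taking for each gene the one nearest to the start in the deposited table. TAATCC was found in 4 of 11 bipolar promoters (Cabp5, Isl1, Lrtm1 and Trpm1) and in 1 of 5 amacrine promoters (Gad1), against 6.87% of all promoters. Whether TAATCC bears on the levels of these genes was not tested. CAGGTA or CAGGTG, the E-box forms known to be bound by ZEB1, stood on either strand in 3 of the 21 promoters (Gng13, Pou4f1 and Gad1), against 28.5% of all promoters. The nearest RefSeq promoters of Otx2, Gad1, Tfap2a and Tfap2b lie 6175, 9057, 3456 and 3140 bases from the starts in the deposited table, so these concern other starts of these genes.

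Among the receptors and channels of bipolar dendrites, Grm6 (chr11:50850685-50866208) was at 2.099 and 3.49 FPKM in Zeb1-CKO libraries and 0.135 and 1.15 FPKM in controls. Both Zeb1-CKO libraries exceeded both controls, and the controls differed from each other more than the Zeb1-CKO libraries did as a ratio. Its mean was 2.79 ± 0.984 FPKM in Zeb1-CKO cells and 0.640 ± 0.715 FPKM in control cells (SD, n = 2 each). By limma on log2(FPKM + 1), its log2 fold change was 1.26 (SE 0.37, 95% interval 0.35 to 2.16), with an adjusted p of 0.156 over all genes tested. Leaving out single libraries moved it between 0.80 without control 1 and 1.72 without control 2, with 0.99 without Zeb1-CKO 2. Limma's adjusted p for Grm6 over all alternatives ran from 0.0668, without control 2, to 0.472, without Zeb1-CKO 2. Trpm1, the channel downstream of that receptor, was at 0.304 and 1.03 FPKM in Zeb1-CKO libraries and 0.0303 and 0.362 FPKM in controls, so the genotypes overlapped. Grm6 shares 599 of its 5421 exon bases with the predicted gene Gm12660 on the opposite strand, which was at 0.123 and 0.151 FPKM in Zeb1-CKO libraries and listed at 0 in both controls. Grik1, which encodes a kainate receptor subunit of OFF bipolar cells, was at 0.473 and 1.20 FPKM against 0.392 and 0.118 FPKM, without overlap.

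The other calcium-binding and signalling genes of bipolar cells were not uniform. Scgn, which encodes the calcium-binding protein secretagogin of cone bipolar cells (chr13:23953456-23991214), was at 0.759 and 3.67 FPKM in Zeb1-CKO libraries and 0.337 and 0.301 FPKM in the controls. The genotypes did not overlap, and the second Zeb1-CKO library was 4.84-fold above the first. Limma gave Scgn a log2 fold change of 1.12 (SE 0.46, 95% interval -0.03 to 2.27) with an adjusted p of 0.290, and 0.42 without Zeb1-CKO 2. Prkca, which encodes protein kinase C alpha, is the classical rod bipolar marker in the retina but is also expressed by many other cell types. It was the bipolar gene that did not follow the others, at 2.06 and 2.47 FPKM in Zeb1-CKO libraries and 2.61 and 1.72 FPKM in controls, with a log2 fold change of 0.06 (95% interval -0.47 to 0.58, limma's adjusted p = 0.918). Lrtm1, a leucine-rich repeat gene, was listed at 0 in Zeb1-CKO 1, was at 0.240 FPKM in Zeb1-CKO 2, and stood at 0.0241 and 0.0217 FPKM in the controls.

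Transcription factors of bipolar cells were also highest in Zeb1-CKO 2. Otx2, a homeobox gene needed for photoreceptors and bipolar cells (chr14:48657677-48673819), was at 2.27 and 7.004 FPKM in Zeb1-CKO libraries and 2.41 and 1.09 FPKM in controls, so that Zeb1-CKO 1 lay within the control range. Isl1, a LIM-homeodomain gene of ON bipolar, ganglion and starburst amacrine cells, was at 0.783 and 3.07 FPKM against 0.677 and 0.903 FPKM. Vsx1, a homeobox gene of cone bipolar cells, was at 0.687 and 1.94 FPKM against 0.309 and 0.598 FPKM, without overlap. Vsx1 has 1 annotated transcript, so its depth can be estimated: about 114 and 247 reads in the Zeb1-CKO libraries and 48.1 and 50.7 reads in the controls, if a step is 1 read. Limma's log2 fold changes were 0.94 for Otx2 (adjusted p = 0.364) and 0.59 for Isl1 (adjusted p = 0.511). Without Zeb1-CKO 2 that of Otx2 was 0.29 and that of Isl1 was -0.003.

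**Figure D2:**
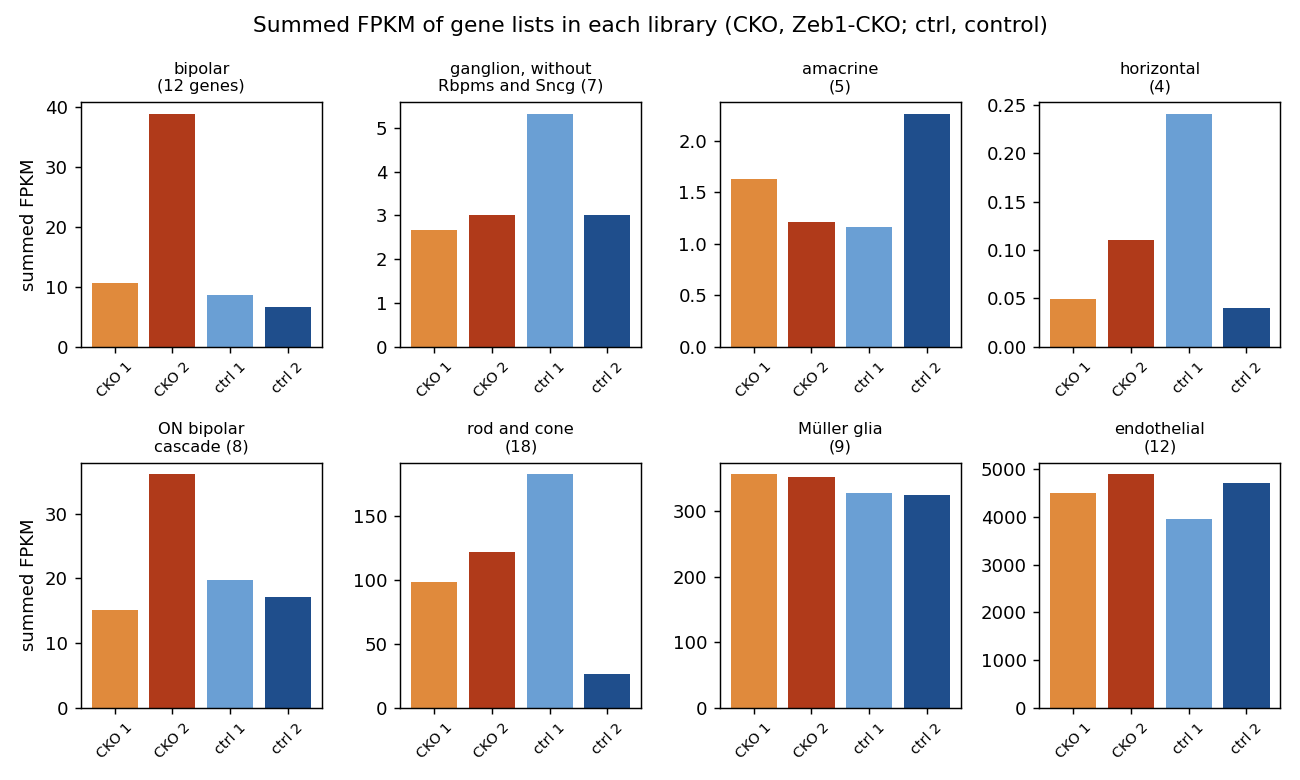
Summed FPKM of 8 gene lists, 1 bar per library, with each vertical axis starting at 0 on its own scale. The bipolar bar of Zeb1-CKO 2 reaches 39.0 FPKM, against 10.6 FPKM or less elsewhere, while the rod and cone bar is highest in control 1 at 183 FPKM and lowest in control 2 at 26.2 FPKM.

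Ganglion-type genes fell into 2 sets by level. Rbpms, which encodes an RNA-binding protein used as a ganglion cell marker in the retina and expressed also in smooth muscle, was the most abundant of the 31 genes, at 16.4 and 26.1 FPKM in Zeb1-CKO libraries and 19.5 and 21.8 FPKM in controls. Sncg, which encodes gamma-synuclein, was at 9.10 and 17.2 FPKM in Zeb1-CKO libraries and 13.9 and 14.2 FPKM in controls. For both genes the 2 Zeb1-CKO libraries lay on either side of the controls. Limma's log2 fold change was 0.01 for Rbpms (95% interval -0.56 to 0.58, adjusted p = 0.988) and -0.15 for Sncg (95% interval -0.85 to 0.55, adjusted p = 0.823). The sign for Rbpms was negative when libraries were scaled to the same median or quantile normalized. The defining ganglion cell genes were far lower than this pair. The homeobox gene Pou4f1 was at 0.137 and 0.127 FPKM in Zeb1-CKO libraries and 0.102 and 0.111 FPKM in controls. Slc17a6, the vesicular glutamate transporter gene of ganglion cells, was at 0.00423 FPKM and listed at 0 in the Zeb1-CKO libraries, and listed at 0 and at 0.0480 FPKM in controls 1 and 2.

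The remaining ganglion-type genes were low, and in 3 of them (Thy1, Stmn2 and Gap43) both controls exceeded both Zeb1-CKO libraries, as in 16.3% of all genes above 0 in any library. All 9 ganglion genes summed to 28.2 and 46.3 FPKM in Zeb1-CKO libraries and 38.7 and 39.0 FPKM in controls, highest in Zeb1-CKO 2 through Rbpms and Sncg. Without this pair, the other 7 ganglion genes summed to 2.67 and 3.02 FPKM in Zeb1-CKO libraries and 5.33 and 3.01 FPKM in controls, highest in control 1. Stmn2, which encodes a neuronal regulator of microtubules (chr3:8509360-8561606), was at 0.720 and 0.402 FPKM in Zeb1-CKO libraries and 1.81 and 1.17 FPKM in controls. The genotypes did not overlap, and limma's log2 fold change was -0.67 (SE 0.25, 95% interval -1.28 to -0.05) with an adjusted p of 0.244; it was -0.52 without Zeb1-CKO 2. Gap43, a growth-cone protein gene, was at 0.314 and 0.356 FPKM in Zeb1-CKO libraries and 1.57 and 0.673 FPKM in controls, likewise without overlap. Thy1, a surface glycoprotein gene, was at 0.374 and 0.682 FPKM against 0.856 and 0.758 FPKM, with the Zeb1-CKO pair below the control pair. The neurofilament genes did not share this order. Nefm was at 0.378 and 0.333 FPKM in Zeb1-CKO libraries and 0.0564 and 0.0619 FPKM in controls, whereas Nefl was at 0.746 and 1.12 FPKM in Zeb1-CKO libraries and 0.932 and 0.185 FPKM in controls. Nefl and Nefm share 1108 exon bases on opposite strands in the annotation, so reads from that stretch cannot be assigned to either.

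Amacrine genes stayed under 1 FPKM in every library. The GABA-synthesizing enzyme gene Gad2 was at 0.506 and 0.379 FPKM in Zeb1-CKO libraries and 0.510 and 0.668 FPKM in controls, and its partner Gad1 was at 0.0804 and 0.0600 FPKM against 0.185 and 0.609 FPKM. Both had their Zeb1-CKO values below their control values, by a small margin for Gad2. Pax6, a homeobox gene of amacrine, ganglion and horizontal cells, was at 0.975 and 0.653 FPKM in Zeb1-CKO libraries and 0.297 and 0.861 FPKM in controls, with overlap. The AP-2 factor gene Tfap2b was at 0.0292 and 0.102 FPKM against 0.147 and 0.128 FPKM, and Tfap2a did not exceed 0.0422 FPKM in any library. The 5 genes summed to 1.63 and 1.21 FPKM in Zeb1-CKO libraries and 1.17 and 2.27 FPKM in controls, so that Zeb1-CKO 2, the highest library for bipolar genes, was among the lowest for amacrine genes.

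Horizontal cell genes were at or near 0 in the libraries. The factor genes Lhx1 and Onecut1 were listed at 0 in all 4 libraries. Calb1, which encodes the calcium buffer calbindin, was at 0.00942 FPKM and listed at 0 in Zeb1-CKO libraries, and at 0.119 FPKM and listed at 0 in controls. Onecut2 was at 0.0400 and 0.111 FPKM in Zeb1-CKO libraries and 0.122 and 0.0401 FPKM in controls. Snap25, a SNARE protein gene of synaptic vesicle release that neurons share, was at 3.22 and 6.04 FPKM in Zeb1-CKO libraries and 4.81 and 1.14 FPKM in controls. It was thus highest in Zeb1-CKO 2 and lowest in control 2. Its log2 fold change was 0.63 by limma (SE 0.50, 95% interval -0.61 to 1.87, adjusted p = 0.574). It was -0.09 without control 2 and 0.26 without Zeb1-CKO 2.

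**Figure D3:**
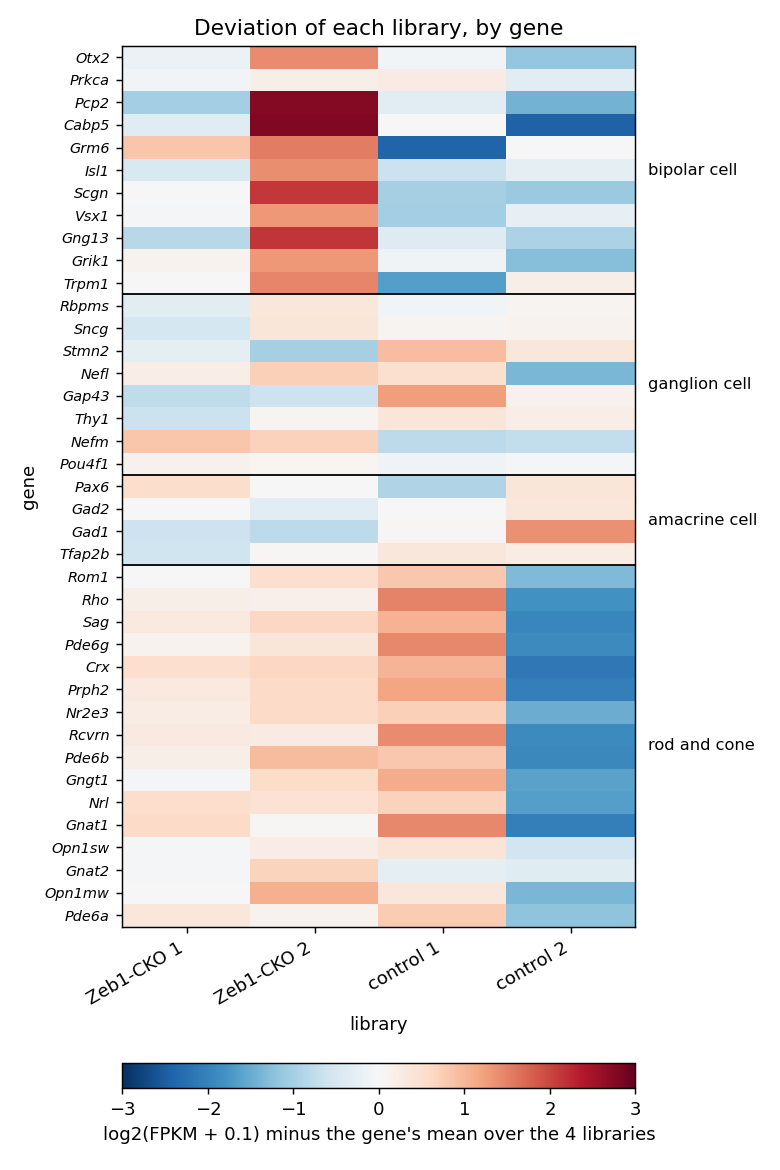
Deviation of each library from the gene's own mean, on the log2(FPKM + 0.1) scale, for bipolar, ganglion, amacrine and photoreceptor genes averaging 0.1 FPKM or more; red is above and blue below that mean. Bipolar rows are red in Zeb1-CKO 2, with Prkca the palest, while photoreceptor rows are blue in control 2.

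None of the 31 genes passed the test between the genotypes. Limma on log2(FPKM + 1) was fitted to 13651 genes whose average reached 1 FPKM, and 11 of the 31 were among them. Of these, 0 were called higher and 0 lower at a Benjamini-Hochberg adjusted p under 0.05, where 2.23% of all genes tested were called higher and 0.901% lower, or 3.13% in either direction. At an unadjusted p under 0.05 there were 2, Grm6 and Stmn2, which compares with 17.9% of all genes tested. The log2 fold change was positive for 9 of the 11 and for all 7 fitted bipolar genes, with a median of 0.63 over the 11. Over all genes tested, 7208 of 13651 were positive, with a median of 0.02, and so were all 13 fitted rod and cone genes, with a median of 0.48. Without Zeb1-CKO 2, those of Isl1, Pcp2 and Prkca were -0.003, -0.086 and -0.035, so 4 of the 7 bipolar genes were positive. Grm6, Pcp2, Cabp5, Isl1 and Scgn averaged 0.640, 0.512, 0.441, 0.790 and 0.319 FPKM in controls, and so reached the filter through Zeb1-CKO libraries. Their positive sign in this fit is therefore partly set by the filter. Stmn2, averaging 0.561 FPKM in Zeb1-CKO cells, reached it through the controls. The filter was set over all 4 libraries, also for the fit without Zeb1-CKO 2. These counts describe only the genes that reached the filter. With a mean of at least 0.1 FPKM and a pseudocount of 0.1, 24 of the 31 were tested, again 0 were called in either direction, against 0.873% of all genes tested called higher and 0.266% lower, or 1.14% in all, and 4 had an unadjusted p under 0.05 (Grm6, Scgn, Stmn2 and Gap43), against 13.3% of all genes tested. In that fit, the 11 bipolar genes tested all had positive log2 fold changes, with a median of 1.40, as had all 16 rod and cone genes tested, with a median of 0.63, whereas those of the 8 ganglion genes were split 4 to 4. That fit was not run without Zeb1-CKO 2.

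**Figure D4:**
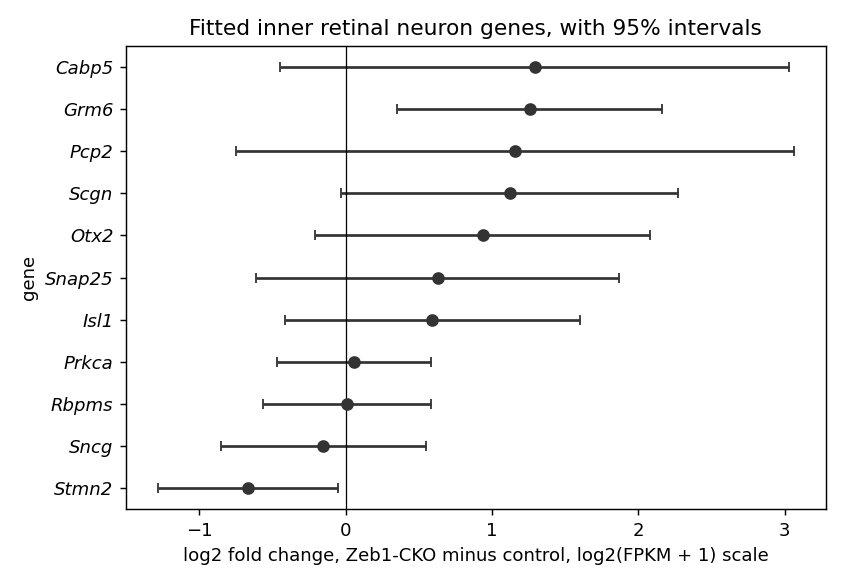
Log2 fold change of Zeb1-CKO minus control on the log2(FPKM + 1) scale for the 11 fitted genes, with 95% intervals from limma. The intervals of Grm6 (0.35 to 2.16) and Stmn2 (-1.28 to -0.05) leave out 0 before adjustment, and those of Cabp5 and Pcp2 are the widest.

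Counted without a test, 6 of the 31 genes had both Zeb1-CKO libraries above both controls (Grm6, Vsx1, Grik1, Scgn, Nefm and Pou4f1) and 6 had both below (Thy1, Stmn2, Gap43, Gad1, Gad2 and Tfap2b). Over all genes above 0 in any library, 17.8% were separated upwards and 16.3% downwards, 34.2% in all. The upward set held 4 bipolar and 2 ganglion genes, and the downward set 3 ganglion and 3 amacrine genes.

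Other genes of the same pathways were also often highest in Zeb1-CKO 2, as were 27.4% of all genes above 0 in any library. In a list of 8 genes of the ON bipolar cascade, 6 were highest in Zeb1-CKO 2, and the sum was 15.1 and 36.1 FPKM in Zeb1-CKO libraries and 19.7 and 17.1 FPKM in controls. Most of that difference came from Gnb3, the G protein beta subunit shared by cones and ON bipolar cells, at 5.19 and 22.7 FPKM against 8.50 and 3.76 FPKM. Gnb5, a beta subunit that partners RGS proteins and is not restricted to bipolar cells, was at 7.47 and 7.56 FPKM against 8.42 and 10.4 FPKM. Limma called 0 of the 4 genes tested in this list, with 0 of them at an unadjusted p under 0.05.

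Of 14 genes of synaptic vesicles and release, 12 were highest in Zeb1-CKO 2, against 27.4% of all genes above 0 in any library. Their sums were 59.1 and 96.7 FPKM in Zeb1-CKO libraries and 65.5 and 44.7 FPKM in controls. Vamp2, the vesicle SNARE, was at 18.6 and 24.7 FPKM in Zeb1-CKO libraries and 21.3 and 19.2 FPKM in controls, and the complexin gene Cplx2 was at 14.0 and 21.4 FPKM against 17.2 and 11.5 FPKM. For both genes the genotypes overlapped, and 0 of the 10 tested in this list were called by limma. Over all genes tested, 17.9% had an unadjusted p under 0.05, and in this list 2 of the 10 had. These were Syn2, a synapsin gene, at 2.34 and 3.69 FPKM in Zeb1-CKO libraries and 0.579 and 0.734 FPKM in controls (limma's adjusted p = 0.0571), and the syntaxin gene Stx3, at 9.87 and 15.2 FPKM against 6.43 and 3.33 FPKM (limma's adjusted p = 0.120), both without overlap. In a list of 18 further inner neuron genes, 11 were highest in Zeb1-CKO 2, against the same 27.4%. Limma called 0 of the 6 tested, with 3 at an unadjusted p under 0.05, against 17.9% of all genes tested.

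Photoreceptor transcripts, which mark other neurons of the retina, followed a different order. The 18 rod and cone genes summed to 98.2 and 121 FPKM in Zeb1-CKO libraries and 183 and 26.2 FPKM in controls, so their largest step lay between the controls, 6.96-fold, and 13 of the 18 were highest in control 1, as were 24.4% of all genes above 0 in any library. The bipolar sum was 10.8% and 32.1% of the photoreceptor sum in Zeb1-CKO libraries and 4.76% and 25.7% in controls. Relative to the ganglion genes other than Rbpms and Sncg, the bipolar sum was 3.96 and 12.9 times as large in Zeb1-CKO libraries and 1.63 and 2.24 times as large in controls. These ratios are descriptions of 4 libraries and were not tested.

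Summed markers of astrocytes and of endothelial cells were also highest in Zeb1-CKO 2. The 9 Müller glia genes summed to 356 and 352 FPKM in Zeb1-CKO libraries and 328 and 325 FPKM in controls, with Aqp4 listed at 0 in both controls and Kcnj10 in control 1. These genes did not move together: of the 7 tested, 5 had positive and 2 negative log2 fold changes. The 4 astrocyte genes summed to 127 and 207 FPKM against 109 and 105 FPKM, with 2 of the 4 highest in Zeb1-CKO 2, as were 5 of the 9 Müller glia genes. Over all genes above 0 in any library, 27.4% were highest there. The 12 pericyte and smooth-muscle genes summed to 1503 and 1598 FPKM against 2151 and 1773 FPKM. Limma called 1 of the 11 tested lower, against 0.901% of all genes tested. This was Tagln, at 7.85 and 8.57 FPKM in Zeb1-CKO libraries and 16.6 and 14.8 FPKM in controls (limma's adjusted p = 0.0429). Red-cell genes were at 745 and 1409 FPKM in Zeb1-CKO libraries and 2727 and 3298 FPKM in controls, and 11 microglial genes at 110 and 95.5 FPKM against 69.1 and 136 FPKM. The part of these cells in the bipolar result was not tested.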

How the data were processed

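Endothelial cells sorted from mouse retina were profiled in 4 libraries, 2 Zeb1-CKO and 2 control, grouped by their titles. Per the labels' protocols, the SMART-Seq v4 kit, which does not mark strand, amplified the cDNA, and read pairs of 150 bases were sequenced. The submitters' processing notes name Trimmomatic 0.36, HISAT2 2.1.0, StringTie 1.3.3 and mm10, without settings. The deposited values are FPKM made by the authors, a unit read from the values and tools because the header names none. Every one of the 53229 gene identifiers with the same version in GENCODE M21 has the same start there, and gene spans are from that release.

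The members and all lists were chosen with earlier results of these data known. Limma 3.58.1 under R 4.3.3, with a trend of variance on level, was fitted on log2(FPKM + 1) to genes averaging 1 FPKM or more, with genotype as the only term and Benjamini-Hochberg adjustment over all genes tested. Fold changes on this scale understate those of low genes. The fit was tested on simulated data. Every member is accounted for. Values in every library are given for members with a mean of at least 1 FPKM or above 0.3 FPKM in any library, and for the 2 most abundant of each class. They are given also for the 2 most abundant genes of the ON bipolar cascade and synaptic vesicle lists. The photoreceptor, glial, endothelial, pericyte, red-cell and microglial lists are given as sums, with values for Tagln, the only gene called in any list. Pet100, Chtf18, Syn2, Stx3, Aqp4 and Kcnj10 fall outside this rule and were named after their values were seen. The most abundant genes of 1 companion list are not reported here. Depth was estimated from FPKM times length under 400 in genes with 1 transcript over 600 bases, where 23.6% to 30.1% of values lay within 0.02 of a whole step, against 4% at random; reads were amplified without molecular identifiers, so depth overstates independent molecules. BLAST 2.17.0 searched member transcripts against all others at 95% identity over 80% of either transcript, which found only Gm12660 for Grm6, with a mean of 0.0686 FPKM, and Gm20649 for Onecut1, listed at 0. Alternative fits blocked on the replicate number, omitted 1 library at a time, or changed the pseudocount, filter, scaling or variance model.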

Additional observations from a re-analysis of the deposited data

How the results depend on the processing

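Of the 14 alternative fits, those that kept all 4 libraries again called 0 inner retinal neuron genes in each direction. Limma's lowest adjusted p among those fits was 0.0948, for Grm6 with the replicate block. Over all genes, the main fit called 304 higher and 123 lower. With the replicate block it called 155 and 38, with no filter 70 and 15, with a filter of 0.1 FPKM 68 lower, and with that filter and a pseudocount of 0.1, 66 lower. Leaving out each library in turn gave 44 to 224 higher, fewest without Zeb1-CKO 2, and 15 to 59 lower, fewest without Zeb1-CKO 1. The labels do not say whether same-numbered libraries shared more than a number. Their deviations had a correlation of -0.118 over 13651 genes, which cannot settle this because each genotype gives only 1 difference per gene. The crossed pairing, chosen after seeing the data, called 306 higher and 149 lower. The paired log2 ratio of the 31-gene sum, with the replicate block, was 0.31.

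Leaving out each library in turn moved the log2 ratio of the 31-gene sum between -0.23 and 0.85 and that of the bipolar sum between 0.46 and 2.34, both lowest without Zeb1-CKO 2. Log2 fold changes changed sign in such fits for Isl1 (-0.00288 to 1.19), Pcp2 (-0.086 to 2.40), Prkca (-0.15 to 0.26), Rbpms (-0.31 to 0.33), Snap25 (-0.091 to 1.35) and Sncg (-0.58 to 0.27). That of Rbpms was -0.042 with libraries scaled to the same median and -0.039 after quantile normalization. The cause was not tested. Those of Grm6, Cabp5, Scgn and Otx2 were positive and that of Stmn2 negative under all 14. Shifts in the median of all genes stayed under 0.1 on the log2 scale. Values below about 0.1 FPKM rest on few reads unless the transcript is long, most so in control 2, the shallowest library. At 0.0400 FPKM in Zeb1-CKO 1, Onecut2, with 16234 bases, had about 28.5 reads if a step is 1 read. That length is from GENCODE M21, where the gene starts at 64340020, while its deposited start is 64340364. The read number is therefore uncertain.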
